A study of Mus musculus with 2 samples.

Results

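The 10 genes described here belong to the bone morphogenetic protein (BMP) pathway and were chosen by symbol. They are the ligands Bmp2, Bmp4, Bmp5 and Bmp6, the receptors Bmpr2 and Acvrl1, the co-receptor Eng, the inhibitor Smad6 and the target genes Id1 and Id3. All 10 were found among the 32285 genes of both count matrices, each under 1 gene identifier. Their levels were followed across the blood and lymphatic endothelial types of the mouse lung, across states of its 2 capillary types, and in pericytes, fibroblasts and alveolar type 1 cells. The cells were chosen by UMIs (molecular barcodes that let each captured transcript be counted 1 time) of marker genes that include none of the 10.

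BMP ligands are secreted proteins that bind pairs of type I and type II receptor kinases, which phosphorylate the transcription factors SMAD1, SMAD5 and SMAD9. These enter the nucleus with SMAD4 and switch on targets such as the Id genes, which encode inhibitors of DNA binding, and Smad6, whose protein feeds back to block the pathway. In endothelium the type I receptor is ALK1, encoded by Acvrl1, which acts with the type II receptor BMPR2 and the co-receptor endoglin and has BMP9 and BMP10 as its high-affinity ligands. In humans, mutations of BMPR2 cause heritable pulmonary arterial hypertension, and mutations of ENG or ACVRL1 cause hereditary haemorrhagic telangiectasia. Capillary endothelium of the lung consists of general capillary cells, and of aerocytes, which are large cells that line the gas-exchange surface next to type 1 cells.

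The donor library held the tdTomato-positive lung cells, and the recipient library the tdTomato-negative ones, from C57Bl mice that had been given a suspension of tdTomato-labelled lung cells 6 months earlier. Both libraries came from the same pool of 3 chimeric lungs and held live cells without the leukocyte marker CD45. The conditioning of the recipients, the strain of the donor animals, and the age and sex of the animals were not in the sources used here. The tdTomato gene itself was not among the measured genes. Each group was 1 library of pooled animals, so no test between groups was possible, and all intervals are 95% intervals for counting error only. After filtering, 4578 donor cells with 31653769 UMIs and 3199 recipient cells with 23445266 UMIs were used, with medians of 6089 and 6385 UMIs per cell.

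The libraries shared 816 cell barcodes. The copy with fewer UMIs, 736 in the donor and 80 in the recipient library, was left out before any value was taken. The gates gave 2445 donor and 368 recipient general capillary cells, 1521 and 606 aerocytes, 151 and 96 venous cells, and 125 and 78 arterial cells. These 4 types had at least 50 cells in each library, and only they were compared between libraries. Recipient cells also gave 534 pericytes, 736 alveolar fibroblasts, 118 adventitial fibroblasts, 153 myofibroblasts, 22 smooth muscle cells, 71 lymphatic cells and 170 type 1 cells. Donor cells gave 45 pericytes and 31 type 1 cells, whose levels are given with no comparison, and fewer than 20 of each other type. Endothelial markers summed to 12082 to 18282 CPM (counts of UMIs scaled to 1000000 per cell type and library) in the 4 donor blood endothelial types and to 9742 to 18819 CPM in the recipient types. Mesenchymal markers summed to 1.69 to 4.34 CPM in those donor types and to 36.6 to 64.7 CPM in those recipient types. UMIs of this platform come from 1 end of a transcript, so levels are set side by side for the same gene across cell types and not between genes.

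**Figure D1:**
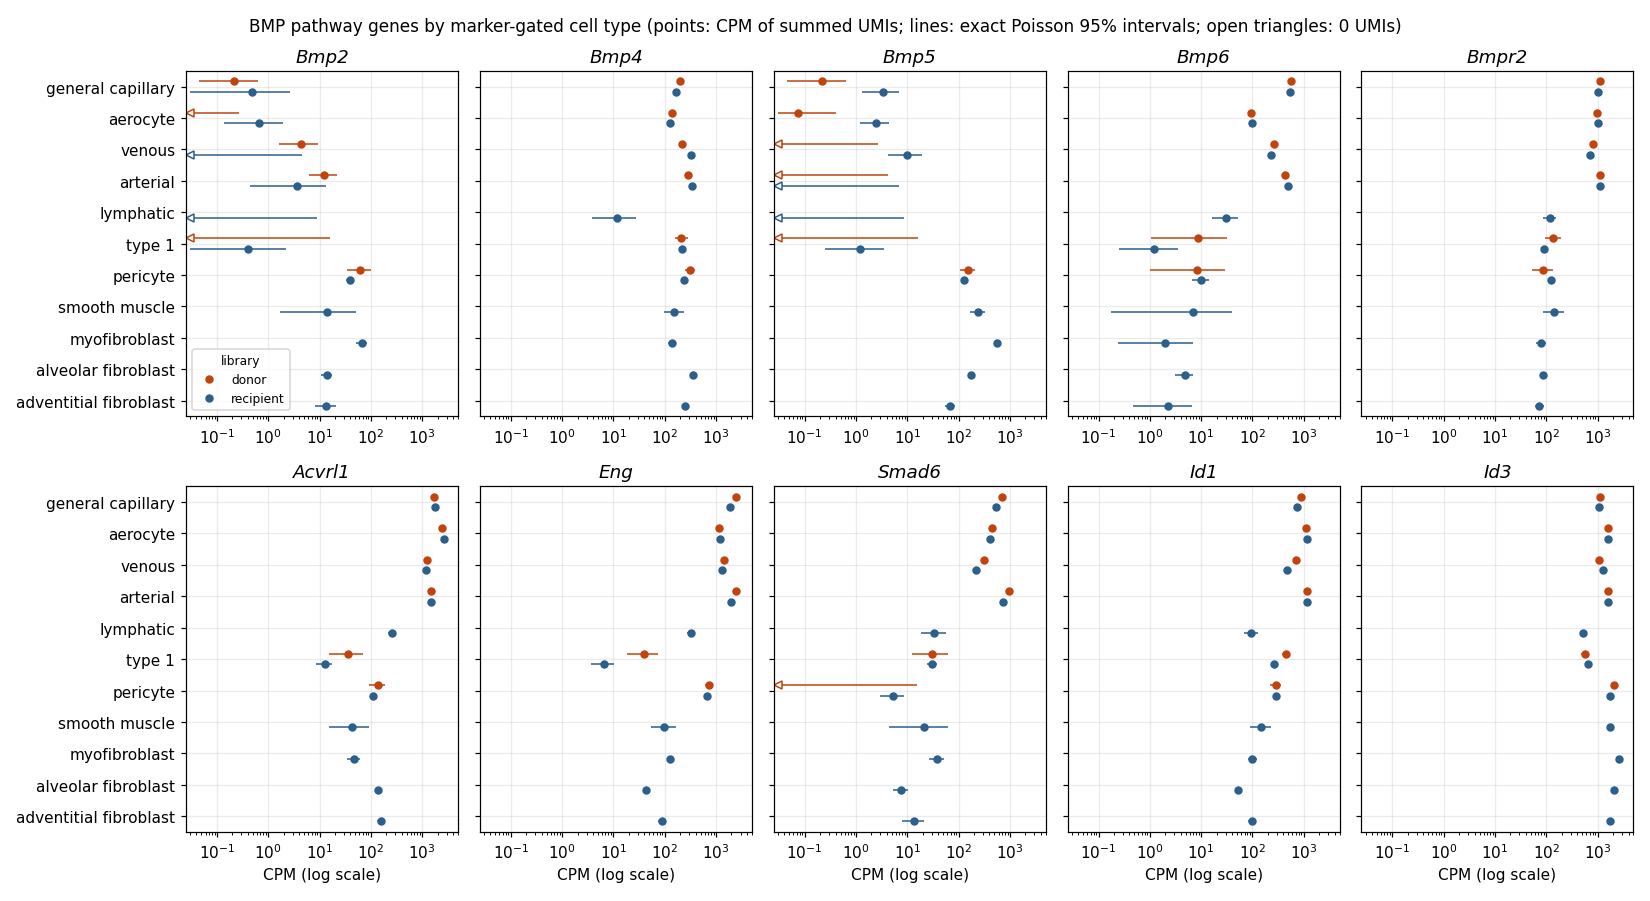
Level of each BMP pathway gene (CPM, log scale) in every gated cell type with at least 20 cells, with the donor library above the recipient library. Bmp6 lies highest in general capillary and arterial cells, and Bmp5 and Id3 highest in recipient myofibroblasts. Bmpr2, Acvrl1, Eng and Smad6 are higher in blood endothelium than in lymphatic and type 1 cells.

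Bmp6 was the ligand with its highest levels in blood endothelium and no level above 31.1 CPM elsewhere. Bmp6 (chr13:38345107-38500302, plus strand, GRCm38), also known as the ligand through which liver endothelium sets hepcidin, stood at 562 (549 to 574) CPM in donor and 540.1 (509 to 573) CPM in recipient general capillary cells. Arterial cells had 432 and 503 CPM, venous cells 258 and 233 CPM, and aerocytes 95.2 and 96.4 CPM in donor and recipient. The order of these 4 types was the same in both libraries, although in the recipient the intervals of general capillary and arterial cells overlapped. Outside blood endothelium Bmp6 did not exceed 31.1 CPM, in recipient lymphatic cells, where 11 of its 13 UMIs lay in 3 cells. With every cell thinned to 2000 UMIs, 64.6% of donor and 61.9% of recipient general capillary cells had a Bmp6 UMI, compared with 16.7% and 17.8% of aerocytes. Of the thinned recipient type 1 cells, 0 of 163 had one, which allows a share of up to 1.84% (3 counts of the total). Unthinned, the shares were 89.6% and 86.1% of donor and recipient general capillary cells and 1.76% of recipient type 1 cells, whose median depth of 14737.5 UMIs was above the 5385.5 of recipient general capillary cells.

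Bmp4 (chr14:46383520-46390669, minus strand), a ligand with roles in lung budding and in the response of pulmonary vessels to hypoxia, was spread over endothelium, mesenchyme and type 1 cells. Its highest recipient levels were 362 CPM in alveolar fibroblasts, 344 CPM in arterial and 327 CPM in venous cells, neighbours whose intervals overlapped. Recipient general capillary cells had 165 CPM and aerocytes 129 CPM. In the donor library the values were 289 CPM in arterial, 222 CPM in venous and 196 CPM in general capillary cells, and 137 CPM in aerocytes. Type 1 cells had 210.5 CPM in the donor and 214 CPM in the recipient library, and pericytes 317 and 242 CPM. Among these types lymphatic cells stood apart at 11.9 (3.88 to 27.9) CPM.

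Bmp5 and Bmp2 were mesenchymal in these lungs. Bmp5 (chr9:75775364-75900310, plus strand), a ligand known from skeletal growth, stood at 559 (514 to 606) CPM in recipient myofibroblasts. Smooth muscle cells had 239 CPM, of which 23 of 34 UMIs lay in 3 cells, alveolar fibroblasts 172 CPM and adventitial fibroblasts 68.5 CPM. Pericytes had 152 CPM in the donor and 125 CPM in the recipient library. In general capillary cells Bmp5 was near 0, at 0.219 CPM (3 UMIs) in the donor and 3.33 CPM (7 UMIs) in the recipient library, too few for a comparison by the minimum used. Mesenchymal marker RNA in the same cells summed to 2.55 CPM in the donor and 58.1 CPM in the recipient library, and with free RNA subtracted Bmp5 stood at 0.0992 CPM in the donor and 1.16 CPM in the recipient library. Bmp2 (chr2:133552159-133562885, plus strand), a close relative of Bmp4, had 66.7 CPM in recipient myofibroblasts and 61.7 and 39.6 CPM in donor and recipient pericytes. Its general capillary values were 0.219 and 0.476 CPM, and the 11 UMIs of donor arterial cells came from 2 of 125 cells.

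The receptors were highest in blood endothelium. Bmpr2 (chr1:59763400-59879014, plus strand), the type II receptor, was the most even of them, with 1135 and 1102 CPM in donor and recipient arterial cells and 1117 and 1026 CPM in general capillary cells. Aerocytes had 990.0 and 1019 CPM, and venous cells 824 and 701 CPM, the lowest of these 4 types in both libraries. Every other recipient type lay between 73.0 and 141 CPM, lymphatic cells included. Acvrl1 (chr15:101128522-101145336, plus strand), which encodes ALK1, was highest in aerocytes, with 2419 (2393 to 2446) CPM in the donor and 2630.3 (2583 to 2678) CPM in the recipient library. General capillary cells followed at 1709 and 1759 CPM, arterial cells at 1515 and 1473 CPM, and venous cells at 1224 and 1206 CPM. No neighbouring pair in this order had overlapping intervals in either library. Recipient lymphatic cells had 258 CPM, pericytes 109 CPM, alveolar fibroblasts 140.2 CPM and type 1 cells 12.5 CPM.

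Eng (chr2:32646595-32682669, plus strand), which encodes endoglin, had another order. It was highest in arterial cells, 2423 CPM in the donor and 1919 CPM in the recipient library, and in general capillary cells, 2401 and 1837 CPM, which did not differ beyond counting error from arterial cells in either library. Venous cells had 1454 and 1296 CPM, and aerocytes, where Acvrl1 was highest, had the lowest Eng of the 4 types at 1164 and 1178 CPM. Unlike Bmpr2 and Acvrl1, Eng was also clear in pericytes, at 724 (621 to 839) CPM in the donor and 653 (623 to 684) CPM in the recipient library. Endothelial marker RNA in those pericytes summed to 395 and 184 CPM, against 14598 and 14112 CPM in donor and recipient general capillary cells. Recipient pericyte Eng stood at 0.356 times the general capillary level. Recipient lymphatic cells had 327 CPM.

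Smad6 (chr9:63953076-64022059, minus strand), the inhibitory SMAD, was nearly confined to blood endothelium among the types measured here. Arterial cells had 946 and 730.1 CPM in donor and recipient, and general capillary cells 707 and 535 CPM. Aerocytes had 448 and 414 CPM and venous cells 315 and 222 CPM. These 4 types kept 1 order in both libraries with no overlap between neighbours. No other recipient type exceeded 37.3 CPM, and pericytes had 0 UMIs in the donor library, which allows up to 12.3 CPM, and 5.35 CPM in the recipient library.

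The windows just upstream of Smad6 and Eng are shown because Smad6 was highest in arterial cells in both libraries, and Eng was higher in general capillary cells than in aerocytes. RefSeq promoter windows were found for 7 of the 10 genes (GRCm38.p6), and 3 of them, those of Bmp4, Eng and Smad6, lay outside the annotated gene. Capitals mark the SMAD-binding letters CAGAC or their complement GTCTG.
Smad6, chr9:64022060-64022309, minus strand: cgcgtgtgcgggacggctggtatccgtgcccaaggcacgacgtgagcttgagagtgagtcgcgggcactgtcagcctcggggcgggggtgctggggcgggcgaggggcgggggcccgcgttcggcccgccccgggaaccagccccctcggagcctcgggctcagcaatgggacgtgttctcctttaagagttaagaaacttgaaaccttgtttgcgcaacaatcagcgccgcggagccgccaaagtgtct
Eng, chr2:32646345-32646594, plus strand: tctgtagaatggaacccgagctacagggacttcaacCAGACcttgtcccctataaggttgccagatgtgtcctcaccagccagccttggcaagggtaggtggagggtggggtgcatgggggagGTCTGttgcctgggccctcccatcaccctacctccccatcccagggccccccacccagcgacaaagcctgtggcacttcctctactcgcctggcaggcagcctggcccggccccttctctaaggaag
The Eng window held 1 match on each strand, which start 214 and 127 bases before the gene's start, and the Smad6 window held none. Searched on both strands, CAGAC was found in 42.2% of 32851 RefSeq windows of 250 bases, and GGCGCC, a BMP-responsive SMAD motif that reads the same on both strands, in 9.59%. GGCGCC was in neither window. A match of these letters is a description and not evidence of binding, and its absence holds for this window only.

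The Id genes reached beyond endothelium. Id1 (chr2:152736251-152737410, plus strand) stood at 1169.8 and 1165 CPM in donor and recipient arterial cells, 1109 and 1182 CPM in aerocytes, 889.8 and 745 CPM in general capillary cells and 710.2 and 468 CPM in venous cells. Type 1 cells had 452 and 264 CPM, pericytes 288 and 292 CPM, and recipient alveolar fibroblasts 52.9 CPM. Id3 (chr4:136143497-136145755, plus strand) was instead highest in mesenchyme, with 2562 (2465 to 2662) CPM in recipient myofibroblasts and 2091 CPM in alveolar fibroblasts. Pericytes had 2052 CPM in the donor and 1729 CPM in the recipient library. Among endothelial types it had 1626 and 1616 CPM in donor and recipient aerocytes and 1587 and 1621 CPM in arterial cells. The lowest endothelial level was that of lymphatic cells at 514 CPM. Alveolar fibroblasts thus combined a high Id3 with the lowest Id1 of the recipient types.

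Differences between cell types of 1 library were read by a fixed fold. A gene counted as higher or lower where its CPM differed at least 1.5-fold, the exact interval of the ratio excluded equality, and it had at least 20 UMIs in both types together and at least 1 in each. Of the 10 genes, 8 could be compared between endothelial types, since Bmp2 and Bmp5 fell under that minimum. Cell types differ in a large share of all genes, so each count is set beside that share.

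Between general capillary cells and aerocytes Bmp6 and Eng were the members higher in general capillary cells in both libraries. In the donor library 3 of the 8 genes were higher in general capillary cells and 0 lower, where 26.6% of all 12414 measured genes were higher and 14.5% lower. In the recipient library 2 were higher and 2 lower, beside 20.7% and 13.9% of 10694 genes. Bmp6 was 5.90 (5.56 to 6.26) times as high in general capillary cells as in aerocytes in the donor library and 5.60 (5.01 to 6.27) times in the recipient library. Eng was higher 2.06-fold (2.02 to 2.10) in the donor and 1.56-fold (1.49 to 1.62) in the recipient library, where it passed the fold under 10 of 13 alternatives, with a lowest log2 ratio of 0.55 with cells thinned to equal UMIs. The Smad6 ratio was 1.58 (1.53 to 1.63) in the donor library, which counted as higher, and 1.29 (1.20 to 1.39) in the recipient library, which did not. Acvrl1, Id1 and Id3 had ratios under 1 in both libraries. Id1 stood at 0.802 (0.783 to 0.822) in the donor and 0.630 (0.595 to 0.667) in the recipient library, and Id3 at 0.683 (0.669 to 0.697) and 0.654 (0.623 to 0.686). Only the 2 recipient values passed the fold, and with the general capillary states weighted equally neither did, at log2 ratios of -0.53 for Id1 and -0.51 for Id3. Recipient Id1 passed it under 12 and Id3 under 9 of 13 alternatives. The Acvrl1 ratios, 0.706 (0.695 to 0.718) and 0.669 (0.644 to 0.694), stood just inside it, and the recipient ratio passed the fold under 7 of 13 alternatives, the donor ratio under 0. Bmpr2 was close to equal, at 1.13 (1.10 to 1.15) and 1.01 (0.956 to 1.06).

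**Figure D2:**
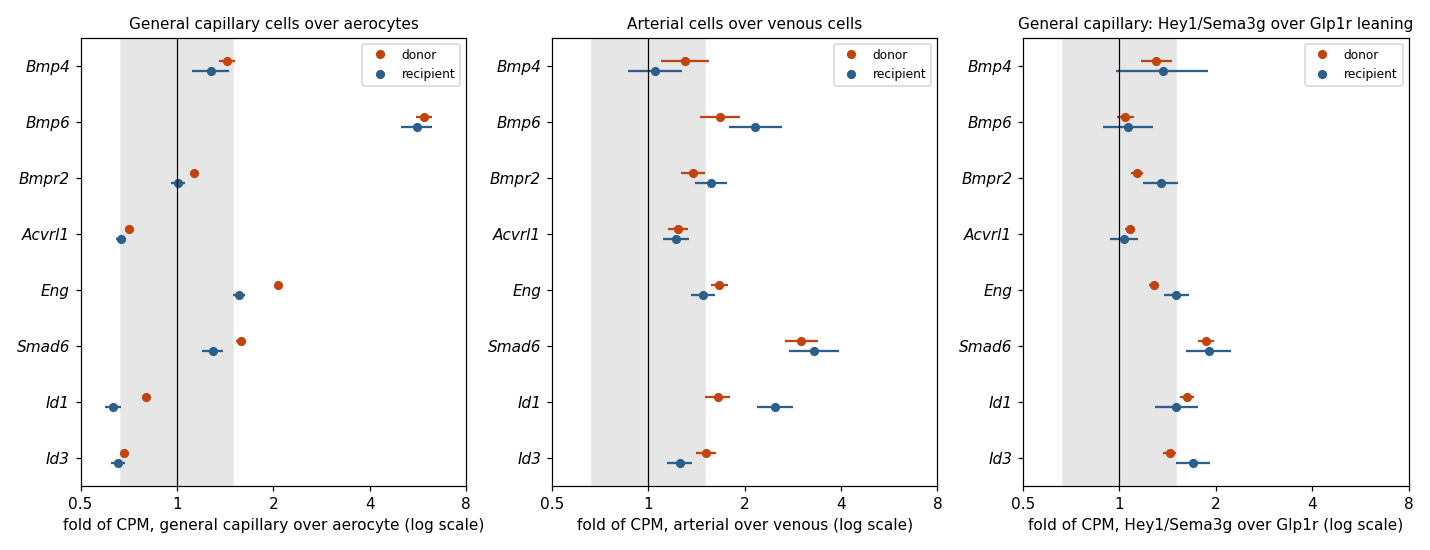
Ratio of CPM (log scale) between 2 cell types or states of the same library, with donor points above recipient points, exact 95% intervals as lines and the range within 1.5-fold shaded. Bmp6 stands apart between general capillary cells and aerocytes, and Smad6 is the gene with the largest ratio of arterial over venous cells and of Hey1 and Sema3g-leaning over Glp1r-leaning cells in both libraries.

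In larger vessels the 8 measured members leaned to the arterial side. In the donor library 5 of 8 genes were higher and 0 lower in arterial than in venous cells, where 7.27% of 8868 genes were higher and 7.12% lower. In the recipient library 4 were higher and 0 lower, beside 9.49% and 6.84% of 7556 genes. The median log2 ratio of the 8 was 0.66 in the donor and 0.61 in the recipient library, beside 0.01 and 0.08 for all measured genes. The other measured pathway genes did not share this lean by median, with -0.01 in the donor and 0.04 in the recipient library. By count, 7 of 22 of them were higher and 2 lower in the donor library. In the recipient library 5 of 20 were higher and 3 lower. Their share of higher genes was thus above that of all measured genes in both libraries. Smad6 was 3.01-fold higher (2.67 to 3.38) in the donor and 3.29-fold higher (2.75 to 3.94) in the recipient library. Id1 was 1.65-fold (1.51 to 1.80) and 2.49-fold higher (2.19 to 2.83), and Bmp6 1.67-fold (1.45 to 1.94) and 2.16-fold (1.79 to 2.61). Bmpr2 counted as higher in the recipient library only, with ratios of 1.38 (1.26 to 1.5) in the donor and 1.57 (1.40 to 1.76) in the recipient library. Eng counted in the donor library only, at 1.67 (1.57 to 1.77) and 1.48 (1.36 to 1.61). The same held for Id3, at 1.52 (1.41 to 1.63) and 1.26 (1.15 to 1.37). With stricter gates the donor Eng and Id3 log2 ratios were 0.53 and 0.58, under the fold. Donor Id3 passed it under 9 of 13 alternatives, with a lowest log2 ratio of 0.53, and donor Bmp6 under 12, with 0.46 when cells were thinned to equal UMIs. Acvrl1 differed least of the 3 receptors, at 1.24 (1.15 to 1.33) and 1.22 (1.11 to 1.34). Against general capillary cells, arterial cells had 0 of 8 genes past the fold in the donor library, beside 8.87% of all measured genes. In the recipient library Bmp4, Id1 and Id3 were higher, 2.09-fold, 1.56-fold and 1.53-fold, and 0 lower, beside 4.86% of genes higher and 4.15% lower.

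Smad6 and Id1 also varied within general capillary cells. Cells whose UMIs leaned to Hey1, a target of Notch signalling, and Sema3g, an arterial semaphorin, numbered 719 in the donor and 53 in the recipient library. Hey2, a relative of Hey1, is among the targets in the list of 49 other pathway genes described below. Whether a gate that uses Hey1 is independent of the pathway was not tested. Leaning meant at least 3 UMIs of the 2 marker sets together, with at least 2 times as many of the leading set. Cells that leaned to Glp1r, the receptor of glucagon-like peptide 1, numbered 597 and 139. Smad6 was higher in the Hey1 and Sema3g-leaning cells, at 932 against 499.9 CPM in the donor library, a ratio of 1.86 (1.76 to 1.98). In the recipient library it stood at 837 against 441 CPM, a ratio of 1.90 (1.61 to 2.24). Id1 was 1.62-fold higher (1.54 to 1.70) in the donor and 1.51-fold (1.29 to 1.75) in the recipient library. Id3 had ratios of 1.43 (1.37 to 1.5) and 1.70 (1.5 to 1.92), and Eng of 1.28 (1.24 to 1.32) and 1.51 (1.37 to 1.65), and both passed the fold in the recipient library only. Thus 2 of 8 genes in the donor and 4 of 8 in the recipient library were higher and 0 lower, beside 3.12% and 3.39% of all measured genes higher and 2.83% and 3.60% lower. Bmp6 did not follow, with ratios of 1.04 (0.981 to 1.11) and 1.06 (0.889 to 1.27). Across the general capillary states with at least 20 cells, Bmp6 stayed between 543 and 578 CPM in the donor and 506 and 583 CPM in the recipient library. The recipient calls of Id1 and Eng depended on the setting: Id1 passed the fold under 8 and Eng under 7 of 13 alternatives, and the lowest log2 ratio of Id1 was 0.25, with cells thinned to equal UMIs.

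The remaining states are given by their levels. The Esm1 and Inhbb state required at least 5 UMIs of the 2 genes together and held 119 donor cells. These cells had 831 CPM of Smad6 and 2629.6 CPM of Eng, beside 932 and 2697 CPM in the Hey1 and Sema3g-leaning cells. They had 760.4 CPM of Id1 and the lowest Acvrl1 of the donor general capillary states, 1426 CPM. The recipient library had 13 such cells, too few for a level. Cells with interferon-induced genes had 638 and 715 CPM of Id1 and 1075 and 1000.4 CPM of Bmpr2 in donor and recipient. Among aerocytes, those with Il1a numbered 179 in the donor and 53 in the recipient library, those with Serpina3k or Serpina3m 428 and 172, and those with neither 769 and 335. Against the cells with neither, 0 of 8 genes passed the fold in either state and either library. For all measured genes the share was 3.28% in the donor and 3.69% in the recipient library for the Il1a state, and 2.67% and 3.13% for the Serpina3k or Serpina3m state. The largest of these differences in both libraries was that of Id1, at 0.804 (0.763 to 0.847) and 0.716 (0.647 to 0.791) times the level of the cells with neither in Il1a aerocytes of donor and recipient, apart from Bmp4 at 1.43 (1.12 to 1.82) in the recipient library.

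The 8 measured members were lower in recipient lymphatic cells than in each of the 4 recipient blood endothelial types. In the recipient library all 8 were lower in lymphatic than in venous cells. Of 7325 measured genes, 28.8% passed the fold in either direction, 14.8% being higher and the rest of the 28.8% lower. The ratio was 0.0365 (0.0117 to 0.0862) for Bmp4, 0.133 (0.0697 to 0.233) for Bmp6, 0.151 (0.0808 to 0.259) for Smad6 and 0.167 (0.122 to 0.224) for Bmpr2. Acvrl1, Eng, Id1 and Id3 stood at 0.214, 0.252, 0.204 and 0.398 of the venous level. Of the 18 measured genes among the other pathway genes, 4 were higher and 8 lower, with a median log2 ratio of -0.05, beside 0.07 for all measured genes. The transducers Smad1 and Smad5 were among the 4. Smad1 stood at 377 CPM in lymphatic and 47.8 CPM in venous cells, 7.89-fold higher (5.53 to 11.5), and Smad5 was 2.68-fold higher (1.72 to 4.22).

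Against recipient general capillary cells, recipient pericytes were higher in Bmp2, Bmp5 and Id3 and lower in Bmp6, Bmpr2, Acvrl1, Eng, Smad6 and Id1. These are 3 and 6 of 10 genes, beside 21.2% and 22.6% of 10660 measured genes. Myofibroblasts were higher than alveolar fibroblasts in 5 of 10 genes and lower in 2, beside 12.7% and 18.4% of 11121 genes. Bmp2 was 4.83-fold (3.42 to 6.83), Bmp5 3.25-fold (2.92 to 3.61), Eng 3.06-fold (2.44 to 3.81) and Smad6 4.99-fold higher (3.10 to 8.00) in myofibroblasts, and Id1 1.87-fold (1.48 to 2.36). Bmp4 and Acvrl1 were lower, at 0.380 (0.318 to 0.451) and 0.329 (0.240 to 0.442) of the alveolar fibroblast level. The Smad6 levels behind its ratio were low, at 37.3 CPM in myofibroblasts and 7.48 CPM in alveolar fibroblasts. Free RNA, estimated from endothelial markers, made up 1.96% of the UMIs of myofibroblasts and 2.48% of those of alveolar fibroblasts. Type 1 cells, the epithelial neighbours of aerocytes, were higher than them in Bmp4, 1.65-fold (1.47 to 1.86), and lower in the 7 others, beside 23.1% and 25.2% of 10607 genes. With shared barcodes left out of both libraries 5 of these differences were counted, the Bmp4 log2 ratio was 0.31, and Bmp6 and Eng had no value.

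Few of these genes passed the fold between the donor and recipient libraries, and at most 9.64% of all measured genes did in any type. With shares this low, a count of 0 or 1 of 8 does not set the members apart from other genes. In general capillary cells 0 of 8 passed the fold, where 9.27% of 11925 measured genes did. The count was also 0 of 8 in aerocytes, beside 4.26% of 11466 genes (1.42% higher and 2.84% lower). It was 0 of 8 in arterial cells, beside 8.71% of 7695 genes (3.63% higher and 5.08% lower). In venous cells 1 of 8 was higher, beside 9.64% of 8756 genes (5.45% higher and 4.19% lower). The median log2 ratio of the 8 genes was 0.19 in general capillary cells, -0.02 in aerocytes, 0.16 in venous and 0.02 in arterial cells, beside 0.00, -0.02, 0.05 and -0.01 for all measured genes.

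The largest differences within general capillary cells were those of Smad6 and Eng. Smad6 stood at 707 (693 to 721) CPM in donor and 535 (505 to 568) CPM in recipient cells, a ratio of 1.32 (1.24 to 1.41). Eng stood at 2401 (2375 to 2427) CPM in donor and 1837 (1779 to 1895) CPM in recipient cells, a ratio of 1.31 (1.26 to 1.35). Both ratios exclude equality by counting error and lie under 1.5-fold, and with 1 library per group they cannot be told apart from a difference between 2 libraries. Within a state the Smad6 ratio was 1.11 (0.980 to 1.27) in the Hey1 and Sema3g-leaning cells, 1.13 (1.01 to 1.27) in the Glp1r-leaning cells and 1.31 (1.18 to 1.46) in cells of mixed state. The Eng ratios in the same order were 1.12 (1.04 to 1.21), 1.32 (1.25 to 1.40) and 1.35 (1.28 to 1.43). In each of these states 0 of 8 genes passed the fold, beside 6.26%, 7.94% and 7.77% of all measured genes. The leaning states made up unequal parts of the libraries, with 719 Hey1 and Sema3g-leaning and 597 Glp1r-leaning donor cells against 53 and 139 recipient cells. With the states weighted equally the donor over recipient log2 ratio was 0.22 for Smad6 and 0.26 for Eng, beside 0.40 and 0.39 over all general capillary cells. Arterial cells had ratios of 1.30 (1.15 to 1.46) for Smad6 and 1.26 (1.17 to 1.36) for Eng.

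**Figure D3:**
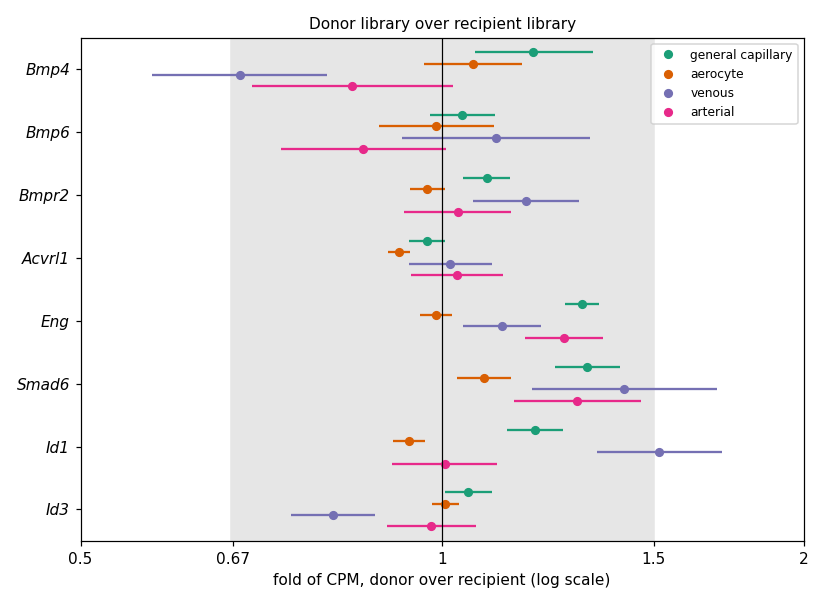
Ratio of CPM in the donor over the recipient library (log scale) for the 8 genes with enough UMIs, with exact 95% intervals as lines and the range within 1.5-fold shaded. Aerocyte ratios lie between 0.92 and 1.08, and the venous Id1 ratio of 1.52 is the only point beyond the shaded range.

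Venous cells gave the 1 gene past the fold. Id1 stood at 710.2 (666 to 756) CPM in donor and 468 (423 to 518) CPM in recipient venous cells, a ratio of 1.52 (1.35 to 1.71). It stayed past the fold under 9 of 13 alternatives and lay under it with no cell filter, with fixed limits, with doublets kept and with free RNA subtracted, with a lowest log2 ratio of 0.46. Free RNA, estimated from mesenchymal markers, made up 8.47% of the UMIs of donor and 2.66% of recipient venous cells, an estimate that rests on 6 marker UMIs in donor and 52 in recipient venous cells. Smad6 had a venous ratio of 1.42 (1.19 to 1.70). Bmp4 was on the other side, with 222 CPM in donor and 327 CPM in recipient venous cells and a ratio of 0.678 (0.574 to 0.802), which passed the fold under 5 of 13 alternatives. Some venous markers also differed between the libraries, in both directions. Selp stood at 184 CPM in donor and 597 CPM in recipient venous cells, and Ptgis at 311 and 564 CPM. Slc6a2 stood at 798 and 531 CPM. Whether the gated venous cells of the libraries are alike in make-up was not tested. In aerocytes every ratio of the 8 genes lay between 0.920 for Acvrl1 and 1.08 for Smad6. Within the 3 aerocyte states 0 of 8 genes passed the fold, beside 4.68% of all measured genes in Il1a aerocytes, 4.38% in those with Serpina3k or Serpina3m and 3.84% in those with neither.

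A list of 49 other pathway genes, all found in the matrices, filled in the surroundings. Of the further ligands, Bmp3 stood at 255 CPM in recipient alveolar fibroblasts and Gdf10 at 219 CPM in adventitial fibroblasts, and no blood endothelial type of either library exceeded 1.43 CPM of Bmp3 or 0.952 CPM of Gdf10. The ALK1 ligands BMP9 and BMP10 are known as liver and heart products. Their genes gave 0 UMIs each in the donor library (Gdf2 and Bmp10), which allows up to 0.0948 CPM, and 1 and 0 UMIs in the recipient library.

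Among the further receptors, Bmpr1a, which encodes the type I receptor ALK3, was found where Acvrl1 was low. It stood at 87.7 and 116 CPM in donor and recipient type 1 cells, 69.9 and 73.8 CPM in pericytes and 83.6 CPM in recipient alveolar fibroblasts. In blood endothelium it did not exceed 4.91 CPM. The co-receptor Tgfbr3 was lower in general capillary cells than in aerocytes, with 55.0 against 124 CPM in the donor and 71.4 against 151 CPM in the recipient library. It was highest in recipient myofibroblasts at 363 CPM.

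The secreted antagonists named here were highest in pericytes, adventitial fibroblasts or venous cells. Fst, which encodes the activin and BMP antagonist follistatin, stood at 1439 CPM in donor and 1449 CPM in recipient pericytes and at most 49.7 CPM in any other type. Nbl1, which encodes the antagonist DAN, stood at 1310.4 CPM in recipient adventitial fibroblasts, 549 CPM in alveolar fibroblasts and 548 and 557 CPM in donor and recipient type 1 cells. It also divided the capillary types, with 8.10 CPM in donor general capillary cells against 142 CPM in donor aerocytes, and 30.5 against 144 CPM in the recipient library. Nog, which encodes noggin, was low throughout, and its highest levels were 20.2 and 15.9 CPM in donor and recipient venous cells.

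**Figure D4:**
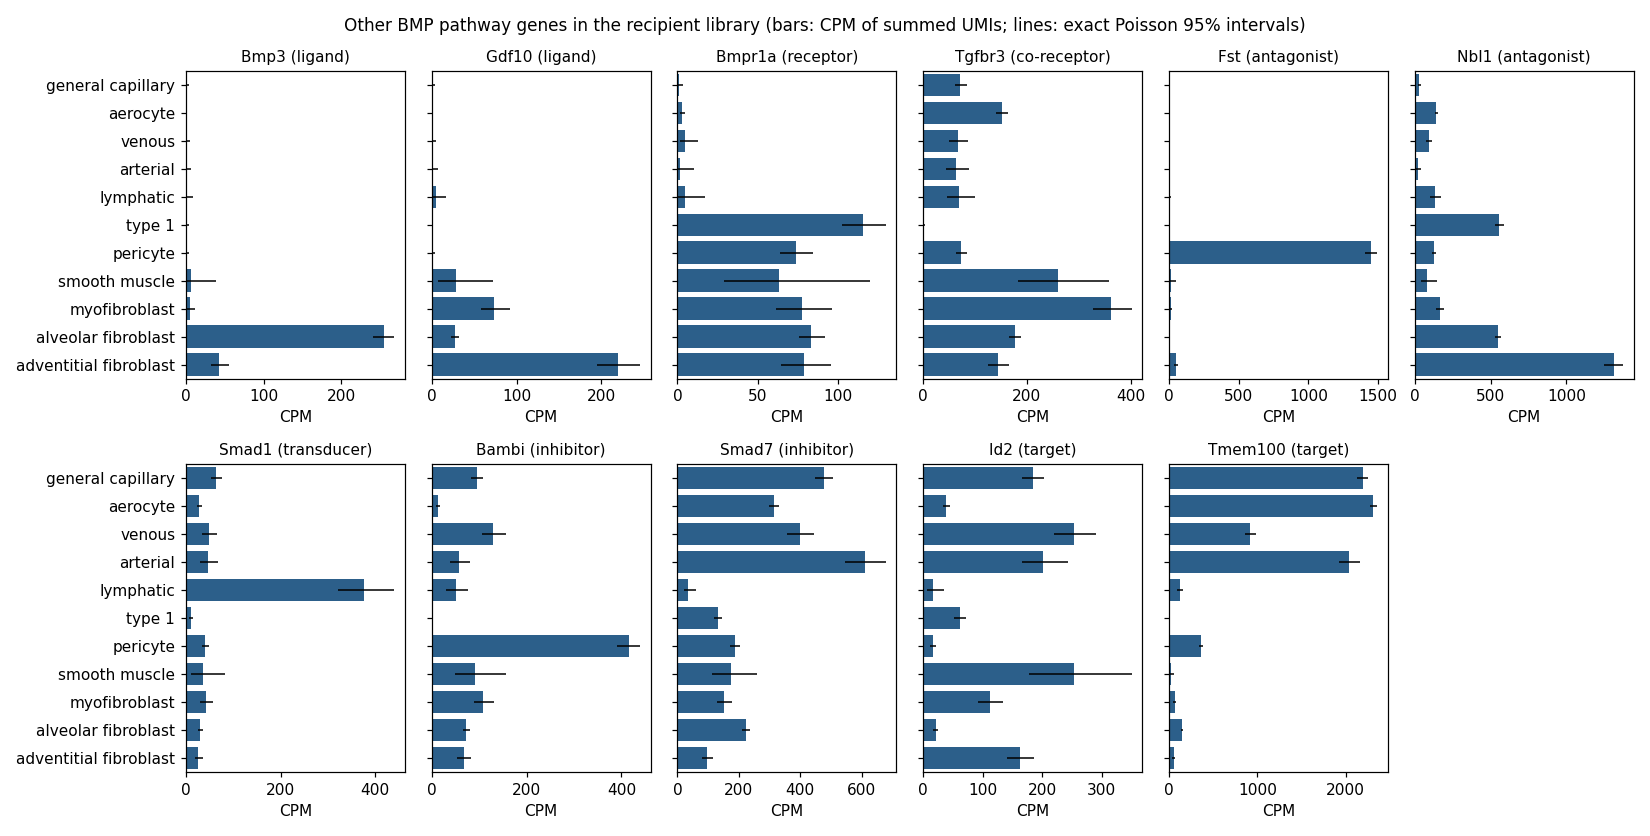
Level (CPM, linear axis, 1 scale per panel) of 11 other pathway genes in the gated types of the recipient library, with exact Poisson 95% intervals as lines. Fst is high in pericytes only, Smad1 in lymphatic cells, and Bmpr1a is near 0 in the endothelial types; the 11 genes were picked for display after their values were known.

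Between general capillary cells and aerocytes, 8 of the 26 measured pathway genes were higher and 5 lower in the donor library, and 6 and 4 of 21 in the recipient library, beside the 26.6% and 14.5% of all measured donor genes and 20.7% and 13.9% of recipient genes given above. Between arterial and venous cells 7 of 22 were higher and 2 lower in the donor and 5 and 3 of 20 in the recipient library, beside 7.27% and 7.12% of donor and 9.49% and 6.84% of recipient genes. Between the leaning states 3 of 23 were higher and 0 lower in the donor and 1 and 1 of 17 in the recipient library, beside 3.12% and 2.83% of donor and 3.39% and 3.60% of recipient genes. Among inhibitors and targets, Smad7, Smad6's relative, was higher in general capillary cells than in aerocytes in both libraries, at 542 against 317 CPM in the donor and 478 against 313 CPM in the recipient library. Bambi, a pseudoreceptor that blocks signalling, was highest in pericytes, at 477 and 415 CPM in donor and recipient. It was also higher in general capillary cells than in aerocytes, 4.92-fold (4.14 to 5.88) in the donor and 7.28-fold (5.42 to 9.90) in the recipient library. Id2 was 4.10-fold (3.76 to 4.48) and 4.84-fold higher (4.03 to 5.82) in general capillary cells, opposite in direction to the Id1 and Id3 ratios. Tmem100, a target of ALK1 signalling, had 2501 and 2193 CPM in donor and recipient general capillary cells and 2370.3 and 2313 CPM in aerocytes. Fkbp1a, whose protein FKBP12 holds type I receptors inactive, was lower in general capillary cells, at 0.534 (0.523 to 0.546) and 0.517 (0.492 to 0.543) of the aerocyte level.

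Between donor and recipient general capillary cells, 0 of the 25 measured pathway genes were higher and 5 lower, where 3.51% of all measured genes were higher and 5.77% lower. These were Fstl1, Twsg1, Htra1, Nbl1 and Bambi. Nbl1 stood at 8.10 CPM in donor and 30.5 CPM in recipient cells, and Htra1 at 0.730 and 5.71 CPM. Mesenchymal marker RNA in those cells was also higher in the recipient library, as given above for Bmp5. After free RNA was subtracted the donor over recipient ratio was 0.677 for Fstl1, which then lay inside 1.5-fold, 0.603 for Twsg1, 0.116 for Htra1, 0.185 for Nbl1 and 0.595 for Bambi. Before subtraction the ratios were 0.664, 0.559, 0.128, 0.266 and 0.601 in the same order. In aerocytes 0 of 23 passed the fold, beside 4.26% of all measured genes. Venous cells had 1 of 23 higher and 2 lower, beside 5.45% and 4.19% of all measured genes. In venous cells Tmem100 was 1.57-fold higher (1.45 to 1.71) in the donor library, with 1451 against 922 CPM, in the same direction as Id1, and with free RNA subtracted its ratio was 1.40. Bambi and Id2 were lower there, at 0.483 (0.359 to 0.648) and 0.610 (0.501 to 0.742) of the recipient level. Arterial cells had 0 of 22 higher and 4 lower, beside 3.63% and 5.08% of all measured genes. Of these 4, Hey2, an arterial Notch target, was at 7.88 against 42.5 CPM and Fstl1 at 110.3 against 179 CPM. Some arterial markers differed too, in both directions. Mgp stood at 467 CPM in donor and 1848 CPM in recipient arterial cells, and Cxcl12 at 2007 and 1270 CPM. Whether the gated arterial cells of the libraries are alike in make-up was not tested.

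Across the 32 columns formed by gated types and states of both libraries, the genes whose log2(CPM + 10) followed each member most closely were sought among 7053 genes. The columns share libraries and cells, so the correlations are descriptions. Bmp6 was followed by Nrros (Pearson r = 0.986) and Upp1 (0.982), Bmpr2 by Cd36 (0.986) and Cd38 (0.983), and Smad6 by Cd38 (0.973) and by Bmpr2 itself (0.971). Acvrl1 was followed by Ifi203 (0.981) and Ramp2 (0.977), Eng by Adgre5 (0.971) and BC028528 (0.963), and Id1 by Esam (0.949) and Pnpla2 (0.929). Among the mesenchymal ligands, Bmp5 was followed by Ddr2 (0.971) and C1qtnf7 (0.969), and Bmp2 by Wnt5a (0.947) and Angptl2 (0.933). The closest genes were less close for Id3, at 0.846 for Hspa1a and Auts2, and for Bmp4, at 0.707 for Lzts2 and 0.688 for Gstm2.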

How the data were processed

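The submitters' processing notes name Cell Ranger 4.0.0 and the mm10 genome, and the labels' protocol names Cell Ranger 3.0.1; which made the files was not given in the sources used here. The deposited matrices hold raw UMI counts per gene and cell, as the authors made them with Cell Ranger per the labels, with 37997269 UMIs in 6319 donor barcodes and 26201315 in 3784 recipient barcodes. Cells beyond 3 scaled median absolute deviations of genes, UMIs or mitochondrial share were left out, as were the highest Scrublet scores (scanpy 1.11.5), at 0.8% per 1000 cells; the automatic threshold marked 0.0317% of donor and 3.57% of recipient barcodes. Cell types were gated by marker UMIs, with thresholds set after the data were seen. Counts were summed per type and library, scaled to CPM, and given exact Poisson intervals; ratios have exact conditional intervals (scipy 1.17.1). With 1 library per group no test was run, and the counting was tested on simulated data. Named genes were the 10 members in every type with at least 20 cells, pathway genes that reached 50 CPM and passed the fold or were highest of their role in a type, and the 2 genes most correlated with each member; other named genes were chosen after their values were seen. Results of 1 listed pathway gene are not reported here. The members and lists were chosen with earlier results of these data known.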

Additional observations from a re-analysis of the deposited data

How the results depend on the processing

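Under 13 alternatives to filtering, barcodes, gates, scaling, thinning, free RNA, state weights and minimum UMIs, 43 of 55 ratios past the fold stayed past it in every alternative that gave a value, 7 of 61 others passed it in some, and 0 reversed. The following counts of members past the fold moved by over 1.5 times, and the cause was not tested unless stated. With no minimum beyond 1 UMI in each group, the donor over recipient count was 1 in general capillary cells and 1 in aerocytes instead of 0, through Bmp5, which the minimum otherwise leaves out. With cells thinned to equal UMIs it was 2 in venous cells instead of 1. With stricter gates the donor arterial over venous count was 3 instead of 5. With equal weight for states the recipient general capillary over aerocyte count was 2 instead of 4. The recipient count of Hey1 and Sema3g-leaning over Glp1r-leaning cells was 2 instead of 4 with fixed filter limits, with shared barcodes left out of both libraries, with the mean of per-cell CPM, with median-ratio scaling and with cells thinned. With shared barcodes left out of both libraries, the recipient type 1 over aerocyte count was 5 instead of 8. No paired analysis was possible because each group held 1 library. Depth limits Bmp2 and Bmp5 in endothelium, where a handful of UMIs sets the level.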
